A study of Rattus norvegicus with 16 samples.

Results

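Rat islets held at the ends of a glucose range were compared with islets held in its middle: the 8 arrays at 2 or 30 mmol/l glucose (the ends) against the 8 arrays at 5 or 10 mmol/l (the middle), which together are all 16 arrays of the series. The arrays were chosen by the concentration in their labels. The measured difference was the mean of the 2 and 30 mmol/l means minus the mean of the 5 and 10 mmol/l means, on the log2 scale and paired by replicate number, over the 31042 probe sets that are not AFFX controls. Islets came from male Wistar rats of 180 to 200 g. All groups shared a preculture of 1 week at 10 mmol/l glucose, in RPMI without serum and with 5 g/l BSA, and then spent 18 h in the same medium at 1 of the 4 concentrations, with 1000 islets for each condition and 4 arrays for each concentration. Per the series' design text the 4 experiments used different islet preparations, and each replicate number was treated as 1 such preparation, with 1 array at each concentration. An islet is a mixture of endocrine and other cells. In such bulk RNA, fewer cells of a type and less RNA per cell cannot be told apart.

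Beta cells take up and burn more glucose as its concentration goes up, and the ATP so made closes potassium channels, opens calcium channels and releases insulin. Shortage of amino acids and other stresses engage the integrated stress response, whose factor ATF4 turns on genes of amino acid synthesis, amino acid import and tRNA charging. High glucose is known to raise secretory protein synthesis and genes with carbohydrate response elements. Lysosomes break down proteins and lipids delivered by autophagy and endocytosis, and many of their genes carry a palindromic E-box bound by factors of the TFEB family.

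Promoter stretches are shown for 3 genes with an amino acid response core and for 2 lysosomal genes, since results below turn on the groups of genes they belong to. Each is from RefSeq on build GRCr8, reads 5′ to 3′ on the gene's own strand and ends at or near the annotated start. Capitals mark TGATGNAA, read on either strand, in the first 3, and TCACGTGA in the last pair.
Trib3, chr3:161275534-161275623, minus strand: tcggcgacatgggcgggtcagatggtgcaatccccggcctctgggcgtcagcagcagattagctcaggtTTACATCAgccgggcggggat
Nupr1, chr1:190645907-190645996, minus strand: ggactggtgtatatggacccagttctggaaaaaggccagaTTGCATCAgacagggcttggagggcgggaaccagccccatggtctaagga
Tars1, chr2:62114803-62114892, minus strand: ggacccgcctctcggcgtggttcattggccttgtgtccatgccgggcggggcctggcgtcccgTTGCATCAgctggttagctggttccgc
Lamp1, chr16:83075064-83075153, minus strand: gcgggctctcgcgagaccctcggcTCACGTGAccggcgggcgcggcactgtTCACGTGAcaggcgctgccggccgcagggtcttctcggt
Galc, chr6:123245560-123245649, minus strand: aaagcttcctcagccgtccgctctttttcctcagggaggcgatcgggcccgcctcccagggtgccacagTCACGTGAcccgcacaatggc
Within 250 bases before the start, TGATGNAA (either strand, N any base) was found in 899 of all 27457 promoters of the table (3.27%), in 148 of 8566 promoters of tested genes (1.73%), in 5 of 16 promoters of cytosolic tRNA synthetases (31.2%) and in 7 of 353 promoters of genes called higher with both end means above both middle means (1.98%). TCACGTGA, which reads the same on both strands and contains the E-box CACGTG, was found in 204 of all promoters (0.743%), in 137 of those of tested genes (1.60%), in 4 of 37 lysosomal promoters (10.8%) and in 8 of 461 promoters of genes called lower with both end means below both middle means (1.74%). Tars1, Lamp1, Galc and the lysosomal list were chosen after their values were seen. A match is a description of these letters, not of a bound site.

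By limma with Benjamini-Hochberg adjustment over 18625 tested probe sets, 3103 probe sets (16.7%) differed between the ends and the middle at an adjusted p under 0.05, with 1336 higher at the ends (7.17%) and 1767 lower (9.49%). Counted as genes, 914 of 10223 rose (8.94%) and 1091 fell (10.7%). The differences were small: the median log2 difference of the calls was 0.29 upward and -0.28 downward, and 21 probe sets upward and 7 downward reached 1 on the log2 scale. The 8 end arrays lay all above the 8 middle arrays for 21 of the 18625 probe sets (0.113%) and all below them for 43 (0.231%). Within each replicate number, both end arrays lay above both middle arrays for 133 probe sets (0.714%) and below both for 212 (1.14%). The count of calls was 1947, 1892 and 1865 without replicate numbers 1, 2 and 3.

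A difference between ends and middle does not by itself say that 2 and 30 mmol/l were alike. Among the 1336 probe sets that rose, 621 (46.5%) had both end means above both middle means. In the same 1336, 30 mmol/l was above 2 mmol/l for 470 (35.2%) and below it for 390 (29.2%), and the 2 ends did not differ by the test for 476 (35.6%). Among the 1767 that fell, 875 (49.5%) had both end means below both middle means, and the ends did not differ by the test for 610 (34.5%). Over all tested probe sets, 8615 (46.3%) differed between 30 and 2 mmol/l and 5895 (31.7%) between 10 and 5 mmol/l. On a log scale the ends and the middle had nearly the same mean glucose (2.95 against 2.82 as log2 of mmol/l), while on a linear scale the ends had the higher mean (16 against 7.5 mmol/l).

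**Figure D1:**
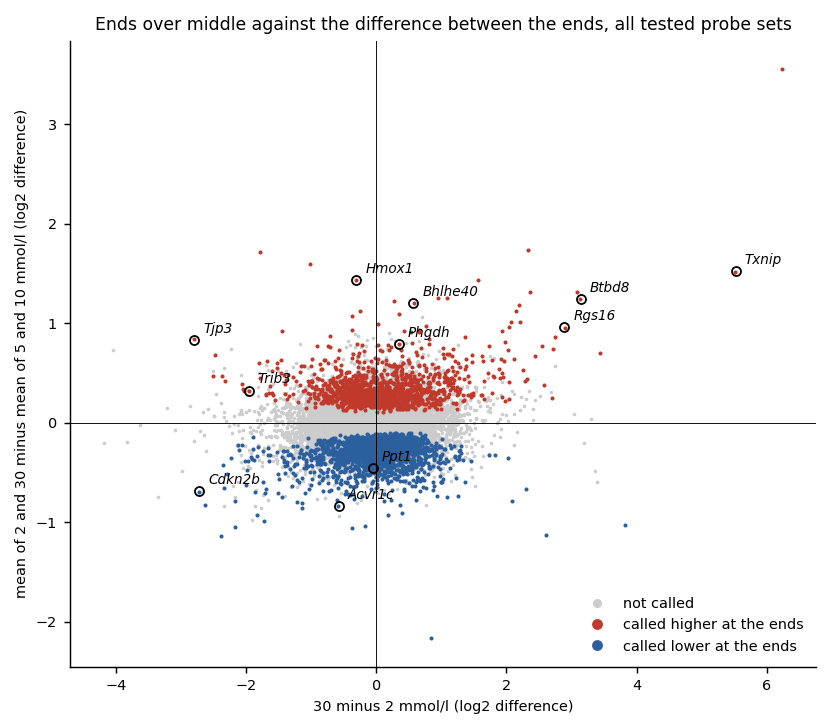
Each point is 1 of the tested probe sets, with the log2 difference of 30 minus 2 mmol/l on the x axis and of ends minus middle on the y axis. Red and blue points are those called higher and lower at the ends by limma, and the points spread to both sides of 0 on the x axis, with Txnip far to the right (5.52) and Tjp3 far to the left (-2.80).

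Concentration, fluidics module and scan order could not be told apart. In 16 of 16 arrays the order of scanning within a replicate number matched the fluidics module. In each number 2 mmol/l was in module 1 and 30 mmol/l in module 4, so the ends were also scanned first and last. The ratio of the 3 prime to the 5 prime control probe set of Gapdh was 0.881 ± 0.0585 at the ends and 0.811 ± 0.0577 in the middle (SD, n = 8), with a two-sided exact permutation p of 0.00154, the smallest that rearrangement within replicate numbers can give, and 0.00617 after adjustment over 4 measures. The same ratio of Actb went the other way (1.90 ± 0.180 against 2.06 ± 0.106, adjusted exact p = 0.0864). Hybridization controls had a mean log2 signal of 9.54 ± 0.154 against 9.77 ± 0.240 (adjusted exact p = 0.0864). The median signal over the tested probe sets was 132 ± 5.12 against 133 ± 1.83 (adjusted exact p = 0.940). By group this median fell along the range, with means of 137.1, 133.6, 131.7 and 127.85 from 2 to 30 mmol/l. The Actb ratio was lower at 2 mmol/l (1.76) than at 5, 10 and 30 mmol/l (2.04, 2.07 and 2.04). The part of these measures in the results below was not tested.

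Of all 10223 genes tested 8.94% rose and 10.7% fell, and the list counts from here on stand beside these shares. Of the 15 tested genes for amino acid synthesis and transport, 10 rose and none fell. Their median log2 difference was 0.26, beside -0.01 over all genes tested. Both end means were above both middle means for 7 of the 15. Such counts, here and for the lists below, include members not called, and no like share over all genes tested was counted. Of the 10 that rose, 4 were called higher and 5 lower at 30 than at 2 mmol/l. Phgdh, the first enzyme of serine synthesis from a glycolytic intermediate, gave signals of 564, 465, 479 and 425 at 2 mmol/l, 354, 351, 346 and 375 at 5 mmol/l, 356, 241, 249 and 279.5 at 10 mmol/l and 619, 624, 699 and 529 at 30 mmol/l, in the order of replicate numbers 1 to 4. Every end array was above every middle array, and 30 mmol/l was the highest group. The difference was 0.79 ± 0.07 on the log2 scale (SE), 1.73-fold, with an limma adjusted p of 2.46e-06, and it was positive in 4 of 4 replicate numbers (0.74, 0.89, 0.98 and 0.55).

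Psph, which completes serine synthesis, gave 461, 516, 487 and 537 at 2 mmol/l, 322, 345, 369.9 and 362 at 5 mmol/l, 247, 248, 224 and 300.4 at 10 mmol/l and 340.3, 439, 469 and 418 at 30 mmol/l. It was highest at 2 mmol/l, and 30 mmol/l replicate 1 lay among the middle arrays, so that the groups overlapped. Its difference was 0.61 ± 0.06 (limma adjusted p = 7.10e-06), and both end arrays exceeded both middle arrays in each number. Psat1, the enzyme between these steps, rose by 0.55 ± 0.07 on the log2 scale (limma adjusted p = 9.27e-05), with means (SD, n = 4) of 463 ± 26.0 and 463 ± 61.1 in the middle against 607 ± 79.7 and 758 ± 97.2 at the low and the high end. Among the transporters, the cystine and glutamate exchanger Slc7a11 rose, with means of 228 ± 37.5, 182 ± 37.8, 154 ± 51.1 and 299.9 ± 43.1 from the lowest to the highest concentration. Its difference was 0.67 ± 0.08 (limma adjusted p = 2.54e-05). The cationic amino acid transporter Slc7a3 rose by 0.91 ± 0.17 (limma adjusted p = 0.00120) from low signals of 28.6 to 58.1 in its 3 lower groups to 83.5 ± 19.5 at 30 mmol/l. Psat1 and Slc7a3 were picked after their values were seen.

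Of genes that charge tRNAs with amino acids, 11 of 18 tested cytosolic tRNA synthetases rose and 1, Qars1, fell, with a median of 0.25. Both end means were above both middle means for 6 of the 18. Of the 11 that rose, 4 were called higher and 4 lower at 30 than at 2 mmol/l. The Qars1 call ended without any 1 of 9 arrays. Tars1, which charges threonine tRNA, gave 563, 694, 528 and 648 at 2 mmol/l, 389, 431, 433 and 436 at 5 mmol/l, 509.9, 529.5, 552 and 479 at 10 mmol/l and 712, 815, 746 and 657 at 30 mmol/l. All 30 mmol/l arrays lay above all middle arrays, and 2 mmol/l replicate 3 lay within the range of 10 mmol/l. The log2 difference was 0.51 ± 0.06 (limma adjusted p = 1.64e-05). Nars1 and Eprs1, for asparagine and for glutamate and proline, rose by 0.33 ± 0.04 and 0.36 ± 0.05 (limma adjusted p = 8.89e-05 and adjusted p = 0.000126), with both end means above both middle means. Aars1, for alanine, was highest at 2 mmol/l: its means were 2354 ± 372, 1753 ± 271, 897 ± 115 and 1237 ± 109.8 from 2 to 30 mmol/l, with ends over middle at 0.45 ± 0.06 (limma adjusted p = 5.98e-05) and 30 over 2 at -0.92.

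The stress response factors themselves did not share 1 shape. Of 17 tested factors and feedback genes of the integrated stress response, 6 rose and 1 fell, and 2 fell when the array of replicate 1 or 4 at 30 mmol/l was left out. Trib3, a pseudokinase that feeds back on ATF4, had means of 1350.2 ± 205 and 1113 ± 112 at 2 and 5 mmol/l and of 272 ± 62.0 and 347 ± 49.5 at 10 and 30 mmol/l, so that its difference of 0.32 ± 0.07 (limma adjusted p = 0.00507) stood beside a 30 over 2 difference of -1.96. The phosphatase subunit Ppp1r15a, which ends the response, had the same order of means, with 0.27 ± 0.07 for ends over middle (limma adjusted p = 0.0125). Nupr1, a stress-induced chromatin protein, was highest at 30 mmol/l (739 ± 193) and lowest at 10 mmol/l (339 ± 93.0), with 0.47 ± 0.07 (limma adjusted p = 0.000179). The translation inhibitor Eif4ebp1 rose by 0.60 ± 0.07 (limma adjusted p = 3.45e-05), with its highest mean at 2 mmol/l (800.2 ± 88.1). Atf5 fell by 0.38 ± 0.05 (limma adjusted p = 4.40e-05), with 482 ± 65.7 at 2 mmol/l and 919 to 1212 at the other concentrations.

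**Figure D2:**
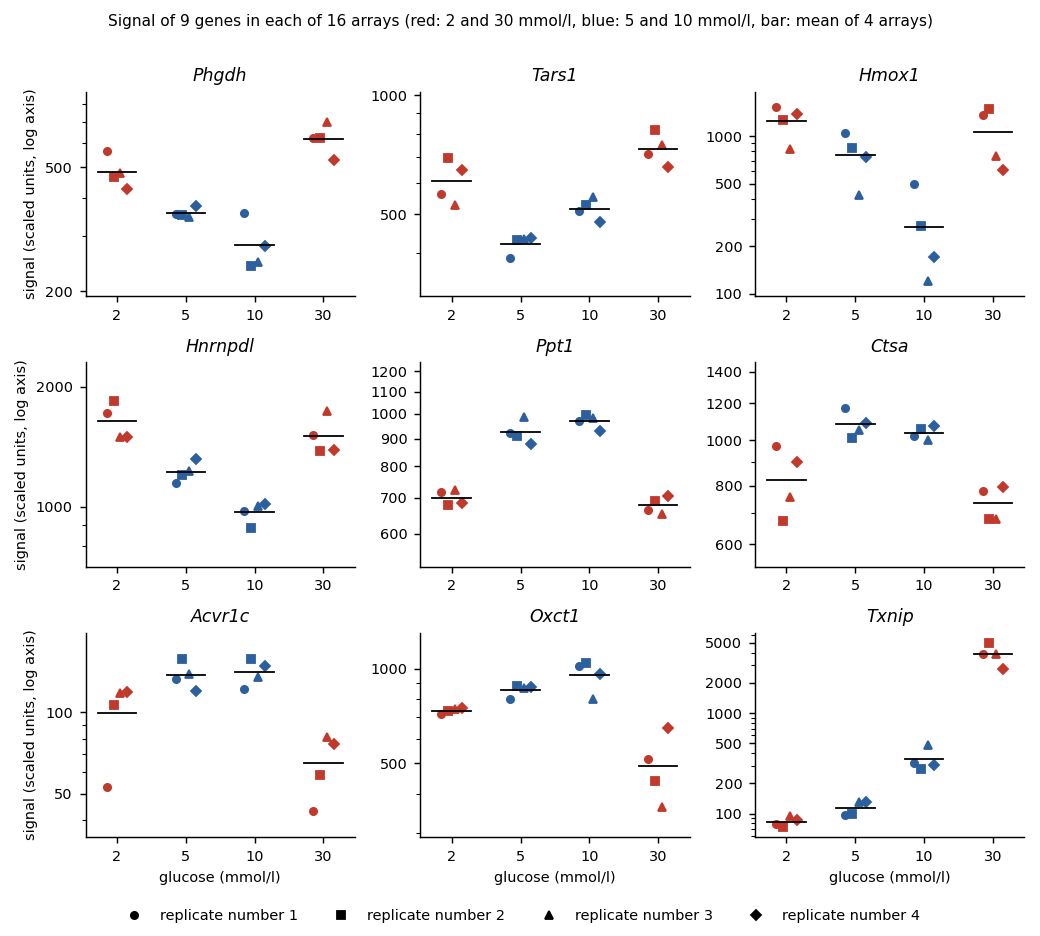
Signal of 9 genes (log axis, scaled units of the deposited table) in each array by glucose concentration, red at 2 and 30 mmol/l and blue at 5 and 10 mmol/l, with marker shapes for the 4 replicate numbers and a bar at each mean. Phgdh, Hnrnpdl, Ppt1, Ctsa, Acvr1c and Oxct1 have end arrays that do not overlap the middle arrays, while the Txnip difference is carried by 30 mmol/l (mean 3882).

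Hmox1, which breaks down heme, gave 1528, 1274, 827 and 1376 at 2 mmol/l, 1050.1, 840.1, 426 and 742 at 5 mmol/l, 496, 268, 121 and 171 at 10 mmol/l and 1372, 1490.1, 754 and 614 at 30 mmol/l. The 10 mmol/l arrays were the lowest in each replicate number, and the 5 mmol/l arrays overlapped the ends. Its difference was 1.43 ± 0.13 on the log2 scale, 2.69-fold (limma adjusted p = 3.10e-06), and 30 over 2 was -0.31 with an adjusted p of 0.197. Over the oxidative stress and metallothionein list, 8 of 19 tested genes rose and 1 fell (median 0.20), and 2 fell when the array of replicate 2 at 5, 10 or 30 mmol/l was left out. Srxn1, which repairs overoxidized peroxiredoxins, rose by 0.73 ± 0.11 (limma adjusted p = 0.000172). Its means were 549 ± 181, 505 ± 163, 286 ± 102 and 714 ± 230 from 2 to 30 mmol/l. Between 2 and 5 mmol/l Srxn1 differed by 0.13 (limma adjusted p = 0.662). The metal-binding Mt2A gave 1332, 793, 1258 and 1542 at 2 mmol/l, 1586, 544, 921 and 1559 at 5 mmol/l, 116, 65.7, 10.8 and 364 at 10 mmol/l and 492, 559, 639.6 and 698 at 30 mmol/l. Its 5 mmol/l arrays were as high as those at 2 mmol/l, so the difference of 1.59 ± 0.37 (limma adjusted p = 0.00659) rested on the low 10 mmol/l arrays. Gpx4, which reduces lipid peroxides, fell by 0.46 ± 0.05 (limma adjusted p = 2.82e-05), with means of 1728 ± 301, 2330.3 ± 329, 1757 ± 411 and 1261 ± 284 from the lowest to the highest concentration.

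The transcriptional repressor Bhlhe40, a clock gene that hypoxia and glucose also induce, gave 68.5, 132, 59.8 and 93.1 at 2 mmol/l, 65.0, 52.2, 55.1 and 63.2 at 5 mmol/l, 30.6, 36.7, 26.2 and 44.6 at 10 mmol/l and 128, 146, 129 and 102 at 30 mmol/l. Its 10 mmol/l arrays were lowest, its 30 mmol/l arrays lay above all middle arrays, and 2 mmol/l replicate 3 lay below some 5 mmol/l arrays. The difference was 1.20 ± 0.14 (limma adjusted p = 2.59e-05). Of 19 tested hypoxia genes 7 rose and 2 fell, and 4 rose without the array of 5 mmol/l replicate 3, while 4 fell without that of 10 mmol/l replicate 1. The vasodilator peptide gene Adm differed by 1.73 ± 0.15 (limma adjusted p = 1.93e-06), with means of 55.4, 50.4, 28.0 and 283 along the range. Among 16 clock and output genes 5 rose and 1 fell, and 3 rose without any 1 of 5 arrays (replicate 1 at 2 and at 5 mmol/l, replicates 3 and 4 at 10 mmol/l and replicate 3 at 30 mmol/l). Npas2, a partner of Bmal1, rose by 0.56 ± 0.10 (limma adjusted p = 0.00109), and the clock repressor Nr1d2 fell by 0.35 ± 0.05 (limma adjusted p = 0.000186) with means of 1844 ± 142, 1687 ± 149, 857 ± 73.1 and 484 ± 36.3 along the range.

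Of 30 tested proteasome subunits 16 rose and none fell, with a median of 0.14. Both end means were above both middle means for 8 of the 30. Of the 16 that rose, 10 were called higher and 1 lower at 30 than at 2 mmol/l. The count that rose was 10 without 30 mmol/l replicate 3. Psmd7, a scaffold subunit of the 19S lid, had means of 844, 729, 728 and 912 along the range, and rose by 0.27 ± 0.05 (limma adjusted p = 0.00107). Psmd14, the lid's deubiquitinase, rose by 0.38 ± 0.06 (limma adjusted p = 0.000247), mostly at 30 mmol/l (1002 ± 44.5). Of genes of protein translocation into the ER and of traffic to the Golgi, 20 of 42 rose and 2 fell, with a median of 0.13, and 1 fell without any 1 of 9 arrays. Srp54a, the signal sequence binding subunit of the signal recognition particle, rose by 0.51 ± 0.05 (limma adjusted p = 6.85e-06), though another of its probe sets lay at -0.30. Sec13, a coat protein of vesicles leaving the ER, rose by 0.45 ± 0.05 (limma adjusted p = 7.10e-06) and the coatomer gene Copb1 by 0.30 ± 0.04 (limma adjusted p = 2.60e-05). Of 19 ER chaperones and isomerases 8 rose and 1 fell, led by Creld2 (0.65 ± 0.06, limma adjusted p = 2.10e-06). Without 2 mmol/l replicate 4, 2 of them fell. The ER chaperone Hspa5 lay at 0.08 (limma adjusted p = 0.147), and with quantile normalization it was called at 0.24 (adjusted p = 3.23e-05), as 12 of the list were called higher. The 8 chaperones that rose, and 19 of the 20 transport genes, were also called higher at 30 than at 2 mmol/l.

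Hnrnpdl, an RNA-binding protein of the hnRNP family, gave 1720.2, 1840.2, 1498 and 1493 at 2 mmol/l, 1149.9, 1199, 1229 and 1320.1 at 5 mmol/l, 976, 886, 1006 and 1014 at 10 mmol/l and 1517, 1381, 1743 and 1385 at 30 mmol/l. No end array overlapped a middle array, and the 10 mmol/l arrays were the lowest. The difference was 0.52 ± 0.06 (limma adjusted p = 1.92e-05) and 30 over 2 was -0.12 (adjusted p = 0.256). Its other probe sets lay at 0.09 and 0.39. Of 30 tested splicing factors 7 rose (23.3%, beside 8.94% of all genes tested) and none fell. When the array of 5 mmol/l replicate 4 or that of 30 mmol/l replicate 2 was left out, 1 fell. Of the 7, 2 were called higher and 2 lower at 30 than at 2 mmol/l. Srsf10 and Tra2a, both regulators of splice site choice, rose by 0.55 ± 0.07 and 0.45 ± 0.06 (limma adjusted p = 9.76e-05 and adjusted p = 0.000134), and Luc7l, a U1 snRNP associated protein, rose by 0.63 ± 0.10 (limma adjusted p = 0.000396), with 276 ± 37.4 at 2 mmol/l and 159 ± 23.2 at 30 mmol/l against 137 ± 16.6 and 135 ± 25.1 in the middle.

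Other genes whose 8 end arrays were all above the 8 middle arrays came from varied pathways. Odc1, the first enzyme of polyamine synthesis, gave 2012, 1939, 1747 and 1838 at 2 mmol/l, 1682, 1711, 1424 and 1602 at 5 mmol/l, 1649, 1368, 1290.1 and 1024 at 10 mmol/l and 2711, 2663, 2328 and 2127 at 30 mmol/l. Its highest group was 30 mmol/l and the lowest 2 mmol/l array was just above the highest middle array. The difference was 0.56 ± 0.05 (limma adjusted p = 3.75e-06). Alg3, a mannosyltransferase of N-glycan assembly in the ER, rose by 0.57 ± 0.07 (limma adjusted p = 3.47e-05), with end arrays of 211 to 283 and middle arrays of 138 to 184. Mrs2, the magnesium channel of mitochondria, rose by 0.52 ± 0.10 (limma adjusted p = 0.00204) with almost equal means at the ends (102 ± 15.7 and 100.2 ± 6.77) and in the middle (70.1 ± 10.3 and 71.1 ± 8.20). Dld, the dihydrolipoamide dehydrogenase shared by several mitochondrial enzyme complexes, rose by 0.25 ± 0.04 (limma adjusted p = 0.000784), with 861 to 1024 at the ends and 767 to 811 in the middle. Further increases in this group, of 0.23 to 0.46, were in Ggct, Agfg1, Selenoi, Nmt1, Armcx2, Abcf3, Parl and Pex2.

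**Figure D3:**
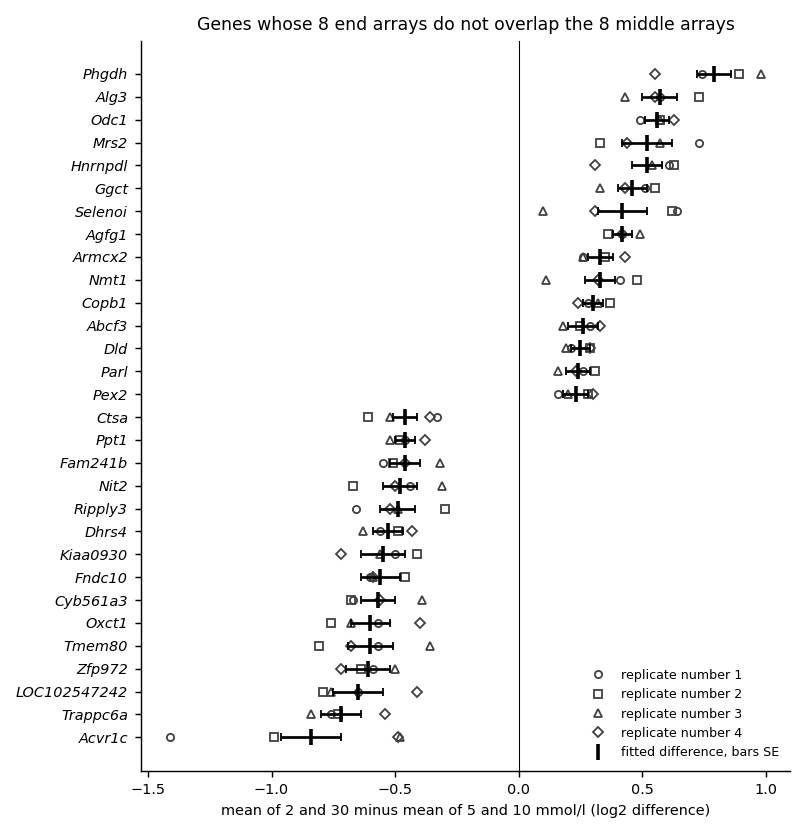
Log2 difference of ends minus middle within each replicate number (open markers) and as fitted by limma (bars, SE) for 30 called genes without overlap between end and middle arrays, the 15 that rose most and the 15 that fell most. All markers of a gene lie on 1 side of 0, as the choice of genes fixes, and Acvr1c has the widest spread, from -1.41 to -0.48.

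On the decreasing side, the named gene without overlap that fell most was Acvr1c, the activin and nodal receptor ALK7. It gave 53.2, 106, 118 and 119 at 2 mmol/l, 133, 157, 139 and 120.3 at 5 mmol/l, 122, 157, 134 and 148 at 10 mmol/l and 43.3, 58.5, 80.9 and 76.6 at 30 mmol/l. All end arrays were below all middle arrays, 2 mmol/l replicate 4 by a narrow margin, and 30 mmol/l was the lowest group. The difference was -0.84 ± 0.12, 1.79-fold lower (limma adjusted p = 0.000172). Trappc6a, a subunit of a vesicle tethering complex, gave 169.8, 185, 228 and 215 at 2 mmol/l, 306, 287, 328 and 325 at 5 mmol/l, 242, 238, 252 and 275 at 10 mmol/l and 152, 134, 113 and 196 at 30 mmol/l, which made -0.72 ± 0.08 (limma adjusted p = 2.11e-05). Its 5 mmol/l arrays were highest and no end array reached the middle range.

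Oxct1, which activates ketone bodies for oxidation, gave 718, 731, 743 and 752 at 2 mmol/l, 802, 882, 870.2 and 876 at 5 mmol/l, 1022, 1039, 800.0 and 963 at 10 mmol/l and 515, 440.2, 364 and 646 at 30 mmol/l. The 30 mmol/l arrays were the lowest, and ends and middle did not overlap. The difference was -0.60 ± 0.08 (limma adjusted p = 4.67e-05). Dhrs4, a peroxisomal reductase of retinal and other carbonyls, gave 383, 436, 391.7 and 373 at 2 mmol/l, 609, 590.2, 528 and 470.1 at 5 mmol/l, 595, 531, 558 and 495 at 10 mmol/l and 435, 364, 313 and 345 at 30 mmol/l. Both ends were low to a like degree, and the difference was -0.53 ± 0.06 (limma adjusted p = 1.32e-05), while a second, dimmer probe set of the gene lay at 0.17. In the fatty acid oxidation list 9 of 20 tested genes fell (median -0.13) and 1, Acadvl, rose. The Acadvl call ended without any 1 of 4 arrays. Of the 9 that fell, 1 was called higher and 5 lower at 30 than at 2 mmol/l. Both end means were below both middle means for 5 of the 20. Cpt1a, the gatekeeper of fatty acid entry into mitochondria, had means of 239 ± 19.6, 294 ± 31.5, 259 ± 20.5 and 186 ± 16.2 along the range (-0.39 ± 0.07, limma adjusted p = 0.000653). The thiolase Acaa2 fell by 0.32 ± 0.04 (limma adjusted p = 0.000128).

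The list of lysosomal genes was written after lysosomal genes had been seen among the decreases, so its counts describe it and test nothing. Of 45 tested members 27 fell and 3 rose (Gla, Scarb2 and Lgmn), and the median was -0.24. Both end means were below both middle means for 23 of the 45. Of the 27 that fell, 10 were called higher and 6 lower at 30 than at 2 mmol/l. Ppt1, which removes palmitate from proteins, gave 716, 677, 722 and 684 at 2 mmol/l, 921, 912, 986 and 881 at 5 mmol/l, 970.0, 997, 981 and 928 at 10 mmol/l and 664, 689, 652 and 706 at 30 mmol/l. Its 2 ends were nearly level with each other, as were its 2 middle groups, and the ranges were far apart. The difference was -0.46 ± 0.04 (limma adjusted p = 2.10e-06), and 30 over 2 was -0.05 (adjusted p = 0.547).

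The protective protein Ctsa gave 971, 672, 757 and 897 at 2 mmol/l, 1173, 1013, 1052 and 1091 at 5 mmol/l, 1022, 1056, 1002 and 1071 at 10 mmol/l and 781, 680.2, 678 and 796 at 30 mmol/l. The ends lay below the middle without overlap, with 2 mmol/l the more scattered group. Its difference was -0.46 ± 0.05 (limma adjusted p = 1.74e-05). The membrane protein Lamp2 gave 2709, 3163, 2872 and 2929 at 2 mmol/l, 3558, 3831, 3301 and 3277 at 5 mmol/l, 3524, 3671, 3620.2 and 3399.5 at 10 mmol/l and 3148, 3207, 3159 and 2811 at 30 mmol/l. Again no end array reached the middle range, with a difference of -0.23 ± 0.04 (limma adjusted p = 0.000284). Hexa, a hexosaminidase subunit, and the protease Ctsf fell by 0.33 ± 0.04 and 0.42 ± 0.06 (limma adjusted p = 6.65e-05 for each). Of the genes whose promoters are printed above, Lamp1 fell by 0.24 ± 0.04 (limma adjusted p = 0.000163), with a second probe set at -0.04, and Galc fell by 0.45 ± 0.08 (limma adjusted p = 0.00124).

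Counts for hormone, granule protein and ribosomal protein genes depended on the scaling. By the deposited scaling 5 of 7 islet hormone genes, 9 of 16 granule and prohormone processing genes and 9 of 14 cytosolic ribosomal protein genes fell and none rose. All of these that fell were also called higher at 30 than at 2 mmol/l. Both end means lay below both middle means for 0, 0 and 2 members of these lists. With quantile normalization the numbers that fell were 1, 2 and 0. Over the 200 tested probe sets with the highest mean signal the median difference was -0.12, with 168 below 0, and it was -0.02 with quantile normalization. Ins1, 1 of the rat's insulin genes, gave 5982, 6509, 5976 and 7526 at 2 mmol/l, 7586, 9259.6, 8442 and 7844 at 5 mmol/l, 9069, 11424, 9235 and 8702 at 10 mmol/l and 8059.7, 9822, 8578 and 8423 at 30 mmol/l. The 2 mmol/l arrays were lowest and the 30 mmol/l arrays lay within the middle range. Its difference was -0.24 ± 0.05 (limma adjusted p = 0.00184), and with quantile normalization it was -0.09 (adjusted p = 0.0745). The amylin gene Iapp and the granule protein gene Resp18 fell by 0.19 ± 0.04 and 0.27 ± 0.04 (limma adjusted p = 0.00139 and adjusted p = 0.000181), and quantile normalization ended both calls, with adjusted p of 0.988 and 0.0510. The glucagon gene Gcg fell by 0.18 ± 0.04 (limma adjusted p = 0.00555) and turned to 0.04 under quantile normalization (adjusted p = 0.312). Ins2 lay at -0.16 ± 0.06 (limma adjusted p = 0.0604). The ribosomal count was 5 when the array of 5 mmol/l replicate 1 or that of 10 mmol/l replicate 4 was left out.

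A second set of calls came from 1 end alone. Txnip, a glucose-induced arrestin that binds thioredoxin, gave 79.3, 73.0, 94.4 and 86.5 at 2 mmol/l, 97.2, 99, 132 and 132 at 5 mmol/l, 317, 281, 479 and 306 at 10 mmol/l and 3898, 5015, 3901 and 2716 at 30 mmol/l. Its 2 mmol/l arrays were the lowest of all and its 30 mmol/l arrays the highest, so that the 1.52 ± 0.11 of ends over middle (limma adjusted p = 3.98e-07) went with 5.52 ± 0.16 for 30 over 2. Btbd8, a BTB domain gene, the collagenase Mmp13 and the G protein regulator Rgs16 were also highest at 30 mmol/l, with 1.24 ± 0.09, 1.32 ± 0.17 and 0.96 ± 0.12 for ends over middle (limma adjusted p = 3.26e-07, 4.67e-05 and 5.93e-05) and 3.14, 3.09 and 2.89 for 30 over 2. In the carbohydrate response element list 7 of 11 genes rose and none fell (median 0.42), among them Klf10 (0.92 ± 0.08, limma adjusted p = 2.10e-06). Of 13 glycolytic genes 9 rose and 1 fell, and all 9 were also higher at 30 than at 2 mmol/l. Eno1 and Tpi1, enzymes of lower and middle glycolysis, rose by 0.62 ± 0.05 and 0.46 ± 0.07 (limma adjusted p = 1.92e-06 and adjusted p = 0.000141), with Tpi1 means of 868 ± 90.7, 1047 ± 103, 1450.1 ± 78.0 and 3339.8 ± 467 from 2 to 30 mmol/l.

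The cAMP-responsive regulator Crem gave 249, 258, 272 and 272 at 2 mmol/l, 215, 190.4, 222 and 226 at 5 mmol/l, 615, 496, 462 and 459.9 at 10 mmol/l and 1059, 914, 1064 and 935 at 30 mmol/l. Its lowest group was 5 mmol/l, while 10 mmol/l was above 2 mmol/l, and ends over middle was 0.64 ± 0.06 (limma adjusted p = 4.65e-06). In the other direction the tight junction gene Tjp3 and the cell cycle inhibitor Cdkn2b were high at 2 and 5 mmol/l. Tjp3 had means of 103.7, 83.95, 7.0 and 15.4 along the range. Its 10 mmol/l arrays, at 1.9 to 18.0, had the lowest mean and lay around the floor of 3.4. Cdkn2b had means of 73.2, 65.5, 32.1 and 13.5, lowest at 30 mmol/l. Tjp3 had 0.83 ± 0.25 for ends over middle (limma adjusted p = 0.0268) and -2.80 for 30 over 2, and this call ended without any 1 of 7 arrays (highest adjusted p = 0.0791). Cdkn2b had -0.69 ± 0.20 (limma adjusted p = 0.0224) and -2.72, and lost its call without any 1 of 5 arrays (highest adjusted p = 0.0588).

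The outer steps of the range, 2 over 5 and 30 over 10 mmol/l, use no array in common, though replicate numbers link them. By limma 1839 probe sets (9.87%) differed between 2 and 5 mmol/l and 2754 (14.8%) between 30 and 10 mmol/l. Both steps were called with the same sign for 397 probe sets, which is 21.6% of the calls at the lower step and 14.4% of those at the upper step, with 138 higher at both ends (0.741%) and 259 lower at both (1.39%). Opposite signs were found for 100, or 5.44% and 3.63% of the calls. Leaving out the array of 2 mmol/l replicate 2 gave a same-sign count of 257, and leaving out replicate 1 or 3 of 5 mmol/l gave 250 or 259. Ppt1, Hnrnpdl, Phgdh and Oxct1 were named among genes without overlap of end and middle arrays, which fixes the sign of both steps. Tars1 and Hmox1 were among the members of their lists with the smallest p for ends over middle. The steps of these genes are examples and not a separate test. Ppt1 was lower by 0.40 at 2 than at 5 mmol/l and by 0.52 at 30 than at 10 mmol/l (limma adjusted p = 0.000502 and adjusted p = 1.16e-05). For Tars1 the steps were 0.52 and 0.50 (limma adjusted p = 0.000801 and adjusted p = 0.000433), for Hnrnpdl 0.42 and 0.63 (limma adjusted p = 0.00480 and adjusted p = 7.26e-05), and for Phgdh 0.43 and 1.14 (limma adjusted p = 0.0118 and adjusted p = 8.78e-07). Hmox1 rose by 0.75 at the lower and by 2.11 at the upper step (limma adjusted p = 0.0170 and adjusted p = 8.78e-07). The Oxct1 step was -0.22 below (limma adjusted p = 0.227) and -0.98 above (limma adjusted p = 8.64e-06).

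**Figure D4:**
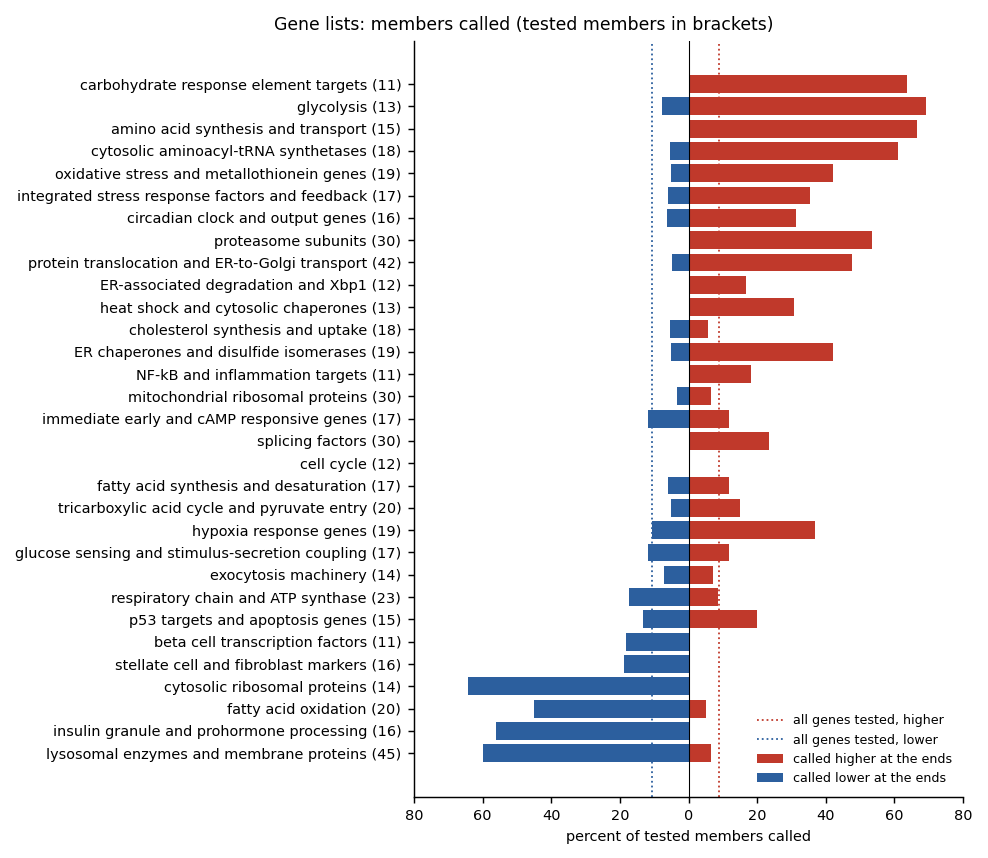
Percent of tested members called higher (red, to the right) and lower (blue, to the left) at the ends for each gene list with at least 10 tested members, ordered by median log2 difference, with dotted lines at the shares over all genes tested (8.94% higher and 10.7% lower). The carbohydrate response element and glycolysis lists lie at the top, and the 7 and 9 members that rose were all also called higher at 30 than at 2 mmol/l. Amino acid synthesis and tRNA synthetases lie next below them. The lysosomal list, which was chosen after values were seen, lies at the bottom.

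Several lists lay near these background shares. Of 17 fatty acid synthesis genes 2 rose and 1 fell. Of 30 mitochondrial ribosomal protein genes 2 rose and 1 fell, and 4 rose when the array of 2 mmol/l replicate 2 or that of 30 mmol/l replicate 1 was left out. Among 17 genes of glucose sensing and stimulus-secretion coupling 2 rose and 2 fell, with the calcium pump Atp2a3 at -0.27 ± 0.03 (limma adjusted p = 5.06e-05) and the incretin receptor Glp1r at -0.26 ± 0.06 (limma adjusted p = 0.00645). The insulin gene activator Mafa lay at 0.09 (limma adjusted p = 0.169).

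Markers of other pancreatic cells were read beside these results. Over all genes tested 8.94% rose and 10.7% fell, and the counts below stand beside these shares. None of the 14 acinar cell probe sets was bright enough to be tested, with a highest signal of 58.0, and their summed signal ranged from 120.2 to 200.9 at the ends and from 167 to 189 in the middle. Of 16 stellate cell and fibroblast markers 3 fell, and their summed signal ranged from 1964 to 6085 at the ends and from 2016 to 6786 in the middle. Of 7 tested endothelial markers 1 rose and 1 fell, calls that ended when any 1 of 11 and 12 arrays was left out (sums of 360.5 to 533 and 379.9 to 566), of 7 macrophage and leukocyte markers 1 fell, or 2 without replicate 3 at 2 mmol/l or replicate 2 at 30 mmol/l (sums of 576 to 870.4 and 685 to 918), and of 5 duct cell markers 1 fell (sums of 2977 to 3870.0 and 2885 to 4006.5). Of 9 alpha cell markers 3 fell, with sums of 14196 to 19674 at the ends and 17686 to 22492 in the middle, and of 9 delta cell markers 2 fell, with sums of 7296 to 9951 and 8442 to 11220.1. Of 3 PP and epsilon cell markers 1 fell (sums of 722.5 to 1962 and 804.9 to 2146). The 1 tested Schwann and neural cell marker, Mbp, rose by 0.38, a call that ended when any 1 of 10 arrays was left out, and the sums of this list ranged from 329.8 to 502 at the ends and from 227 to 432 in the middle. The ranges of ends and middle overlapped for each of these sums. These ranges were not paired by replicate number, unlike the calls. Their overlap therefore cannot show whether a sum shifted within replicate numbers, which was not tested. The part of these other cells in the results above was not tested.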

How the data were processed

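Transcripts were measured on 16 Affymetrix Rat230_2 arrays. Values are linear signal intensity as deposited. Per the submitters' processing notes GCOS produced them; its settings are not given in the sources used here. Without the lowest and highest 2% of signals, array means ran from 150.04 to 150.05, so the arrays had been brought to a common trimmed mean before deposit. Of 31099 probe sets, 57 AFFX controls served for array quality. Signals under 3.4, the 10th percentile, were set to 3.4 and log2 was taken, and the upper 60% by mean level (18625 probe sets) were tested. GEO's platform annotation named 1 gene for 20826 probe sets, several for 436 and none for 9780. Each gene was read from the brightest of its single-symbol probe sets. Genes without one were not analysed here. No depth exists for arrays, so their number limits the precision.

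The fit was limma 3.58.1 in R 4.3.3 (lmFit, eBayes with trend, two-sided) with group and replicate number as terms and 9 residual degrees of freedom; p-values were adjusted by Benjamini-Hochberg over all probe sets tested and called under 0.05. The numbers pair the arrays: after subtraction of group means, 24 same-number pairs of arrays correlated at 0.136 to 0.434 and 72 other pairs at -0.264 to 0.130, while the best match of an array was of its own number in 16 of 16. The 4 arrays of a number took fluidics modules 1 to 4 and shared 1 scan day and 1 chip lot. There were 3 scan days and 2 chip lots. Array measures were compared by exact permutation within numbers. Python 3.11.15, pandas 2.3.3 and scipy 1.17.1 made the counts.

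Named genes are the 15 largest increases and decreases among called genes without overlap of end and middle arrays, the 6 called genes with the largest 30 over 2 difference, up to 4 genes of each list with the smallest p, and a set of islet and stress genes chosen by name, of which the text prints some. A further part of the rule, genes without overlap and a difference of at least 1, found no gene. Members of 40 gene lists (699 of 785 genes with a probe set) were counted without a set test. Lists, members and tests were chosen with earlier results of these data known, and the lysosomal list and the genes Manba, Lamp1, Lamp2, Hexa, Ctsf, Psap, Ctsd, Galc, Psat1, Slc7a3, Scarb2, Gla, Lgmn, Mt2A and Arrdc4 after their values in this comparison. Alternatives were the fit without the block, with a random block or with scan day in its place, median centring, quantile normalization, other level filters, no floor, 50 added before log2, no trend in eBayes, stricter thresholds, averaged probe sets per gene, and fits lacking 1 array or 1 number.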

Additional observations from a re-analysis of the deposited data

Results flagged for a closer look

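Within each concentration the 4 arrays of 20 genes were examined for a single value far from the others by Dixon's ratio at its 95% critical value, which is 80 groups, and 4 stood out. Chance marks about 1 in 20 groups, so a number like this is what chance gives. Acvr1c at 2 mmol/l had 53.2 in replicate 1, while the other arrays of that concentration were at 106 to 119. Tars1 at 5 mmol/l had 389 in replicate 1, below 431 to 436 in the others. Oxct1 at 5 mmol/l had 802 in replicate 1, below 870.2 to 882. Lamp2 at 30 mmol/l had 2811 in replicate 4, below 3148 to 3207. The calls of these genes for ends over middle held without any 1 array, with highest limma adjusted p of 0.000724 for Acvr1c, 9.09e-05 for Tars1, 0.000228 for Oxct1 and 0.00117 for Lamp2.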

How the results depend on the processing

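The 3103 calls for ends over middle were 1425 without the replicate block (627 higher, 798 lower; the same-sign count of the outer steps was 67), and all 1425 were among the 3103. At an adjusted p under 0.01 they were 1579 (662 higher, 917 lower), and with a 1.5-fold threshold 210 (116 and 94). Leaving out 1 replicate number gave 1865 to 2317 (794 to 1018 higher, 1071 to 1299 lower) and 122 to 222 for the outer steps; leaving out 1 array gave 2378 to 3010 (985 to 1280 higher, 1393 to 1730 lower) and 250 to 381. The outer steps' 397 became 238 with scan day as a block and 193 without trend. The other alternatives kept these counts within 1.5 times, and no probe set called in both changed sign under any of them. Of 127 genes, 121 of them called, 16 lost the call without the block (among them Trib3, Nupr1, Ppp1r15a, Iapp, Gcg, Glp1r, Tjp3 and Cdkn2b), 4 with a random block, 5 with scan day as a block, 10 with quantile normalization (hormone, granule and ribosomal genes), 4 without a level filter (Mt2A, adjusted p = 0.0554) and 4 without trend. Gcg reversed to 0.04 under quantile normalization, which also called Hspa5, Mafa and Xbp1 higher (0.24, 0.15 and 0.14). Without the block 6 proteasome genes, 4 oxidative stress genes and 1 stress response gene rose, and 5 fatty acid oxidation, 2 hormone, 3 granule and 3 ribosomal genes fell. No stellate, endothelial or macrophage marker was called without the block. The cause of these differences was not tested. Low signals near the floor, as for Tjp3 and Cdkn2b, limit their precision.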
